A study of Homo sapiens with 2 samples.

Results

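Metallothioneins are a family of small, metal-binding proteins, and the 10 genes described here are MT1A, MT1B, MT1E, MT1F, MT1G, MT1H, MT1M, MT1X, MT2A and MT3. Members were taken by name, as every array probe to which the deposited files give one of these gene names. They made up 10 of the 30238 gene names and 17 of the 41000 probes on the array. Of the 10 genes, 5 had a single probe and 5 had several.

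The cells were A2780, a human ovarian carcinoma line, and the design compared drug-selected sublines with A2780CC, parental cells kept in culture alongside, to find genes whose expression differed after selection. By the study's account each line had its own co-cultured control, so the controls of the lines are separate cultures. A2780CBN was selected with carboplatin, to 22.2 µM in the labels, and A2780CBNDXL with carboplatin and docetaxel together, for which the labels give 8.02 µM for the combination and no separate dose for each drug. By the study's own account that figure is the carboplatin part of an IC50 of the line under combined exposure, with docetaxel at a far lower concentration. It is not the dose reached in selection, which the study gives as somewhat lower for both drugs. For each line, 3 RNA isolations were pooled into 1 sample, which was hybridized in different dyes with the control on 4 arrays. Each of 2 slides carried a forward and a reverse labelled array per line. Each line is thus 1 sample, its 4 arrays repeat that sample, and the SD between arrays covers labelling and hybridization error and no difference between cultures. Arrays 1 and 2 of each line were on slide 1 and arrays 3 and 4 on slide 2, with forward labelling on arrays 1 and 3. Between 59.8 and 67.5% of the spots in a channel were well above background, and the number of arrays limits the precision.

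Metallothioneins hold zinc and copper in clusters of cysteine thiolates, and the same thiolates can take up cadmium or platinum, which is why the family has been studied in platinum-treated ovarian tumours. Transcription of most members rises when the zinc-sensing factor MTF1 binds metal response elements in their promoters, and glucocorticoids and oxidative stress also induce some of them. The functional genes of the MT1 group and MT2A are expressed in many tissues, whereas MT3 is best known from the brain.

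Because the members arose by duplication, their probes share sequence, and the values of some probes cannot be assigned to 1 gene from sequence alone. Among 127 pairs of probes for different members, 15 pairs shared an unbroken run of at least 15 bases, and 11 of the 17 probes were in such a pair. A run of at least 20 bases was shared in 5 pairs, by 6 probes. For 4 probes the array annotation lists transcripts of more than 1 metallothionein gene. Of these, the MT1A probe and the MT1H probe at chr16:55261957-55262342 each list MT1M besides their own gene. The MT1H probe at chr16:55228291-55228350 also lists MT1L and MT1X, and the MT1X probe at chr16:55275399-55275458 also lists MT1A and MT1H. Pairs from this group are shown first, since they bear on how MT1X, MT1H and MT1A can be read. In each pair the capitals mark the bases that differ where the probes overlap, and coordinates are those of the array files on NCBI36. The MT1X probe at chr16:55275399-55275458 and the MT1H probe at chr16:55228291-55228350 had 55 identical bases of 58 in the overlap, or 94.8%. With the MT1X probe at chr16:55275411-55275470, printed further on, the same MT1H probe had 43 of 46, or 93.5%. The MT1A probe, which spans an intron at chr16:55230706-55231309, and the other MT1H probe, at chr16:55261957-55262342, had 50 identical bases of 54, or 92.6%. All 4 are on the plus strand.
MT1X: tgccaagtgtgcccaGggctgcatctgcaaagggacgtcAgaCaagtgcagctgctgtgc
MT1H: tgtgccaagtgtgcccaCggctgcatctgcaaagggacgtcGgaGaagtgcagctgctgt
MT1A: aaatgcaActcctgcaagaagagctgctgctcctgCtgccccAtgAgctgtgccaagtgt
MT1H: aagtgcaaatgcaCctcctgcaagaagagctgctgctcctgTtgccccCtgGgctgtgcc

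A further group of probes crosses the stop codon, which is in capitals in the next sequences, and shows how much coding end MT1E, MT1B, MT1G and MT1X have in common. The probes lie at chr16:55218354-55218413 for MT1E, chr16:55244449-55244508 for MT1B, chr16:55258247-55258306 on the minus strand for MT1G, of which the first 45 bases are printed, and chr16:55275411-55275470 for MT1X. Counting back from the end of the stop codon, MT1E and MT1X were identical over 21 bases, MT1E and MT1G over 15, and MT1B over 14 with each of the others. The MT1G probe itself begins at 15 bases, so these probes do not show how much further MT1G matches MT1E. Beyond the stop codon the sequences differ only in part for some pairs. Across the overlap the MT1B probe was identical to the MT1G probe at 84.4% of the bases and to the MT1E probe at 83.1%.
MT1E: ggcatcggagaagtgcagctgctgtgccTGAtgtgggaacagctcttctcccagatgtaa
MT1B: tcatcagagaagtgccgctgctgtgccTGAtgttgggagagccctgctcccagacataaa
MT1G: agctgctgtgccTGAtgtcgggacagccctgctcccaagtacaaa
MT1X: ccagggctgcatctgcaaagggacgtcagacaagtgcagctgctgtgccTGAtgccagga

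Little is shared by the probes of MT2A at chr16:55200833-55200892 and MT1M at chr16:55225311-55225370, both on the plus strand, which gave the largest changes in A2780CBNDXL among the probes used for the genes. Their first 30 bases follow, without capitals. The longest run that the MT2A probe shared with a probe of another member was 6 bases, and for the MT1M probe it was 9 bases.
MT2A: caaccctgaccgtgaccgtttgctatattc
MT1M: ttttttcaatacgatactgagccatttgct

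A gene was called higher or lower when its mean log2 ratio of line over control was at least 1 in size, or 2-fold, with the same sign on all 4 arrays and with 1 channel well above background on all 4. Where a gene had several probes, the brightest on average was used for it. In A2780CBN 9 members could be measured by this rule, and 5 of them were called higher, MT1B, MT1E, MT1G, MT1M and MT2A, beside 8.01% of the 17947 genes measured. None of the 9 was called lower, where 4.57% of all genes were. In A2780CBNDXL 8 members were measured, 2 were called higher, MT1E and MT1M, beside 7.72% of 17108 genes, and 1 was called lower, MT2A, beside 9.21%. The count of 1 lower member among 8 is near the share of all genes.

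The median log2 ratio of the 9 members measured in A2780CBN was 1.23, with a range from 0.10 to 1.95, whereas the median of all genes was -0.06. MT1M, for which only a bound is known, lay just above the median, and with it at its bound of 0.99 the median was 0.99. In A2780CBNDXL the median of the 8 members was -0.09, beside 0.04 for all genes, and the members ran from -2.18 to 3.45; with MT1M at its bound the median was the same. MT1A, MT1H, MT1X and MT3, 4 of the 9 members measured in A2780CBN, were not called. The A2780CBN median depended on dim probes and on array 3, without which it was 0.75, as MT1M lost its call and MT1F entered the measured genes. With another background correction, normexp followed by loess, it was 0.44, and only MT2A of the 5 members kept its call.

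**Figure D1:**
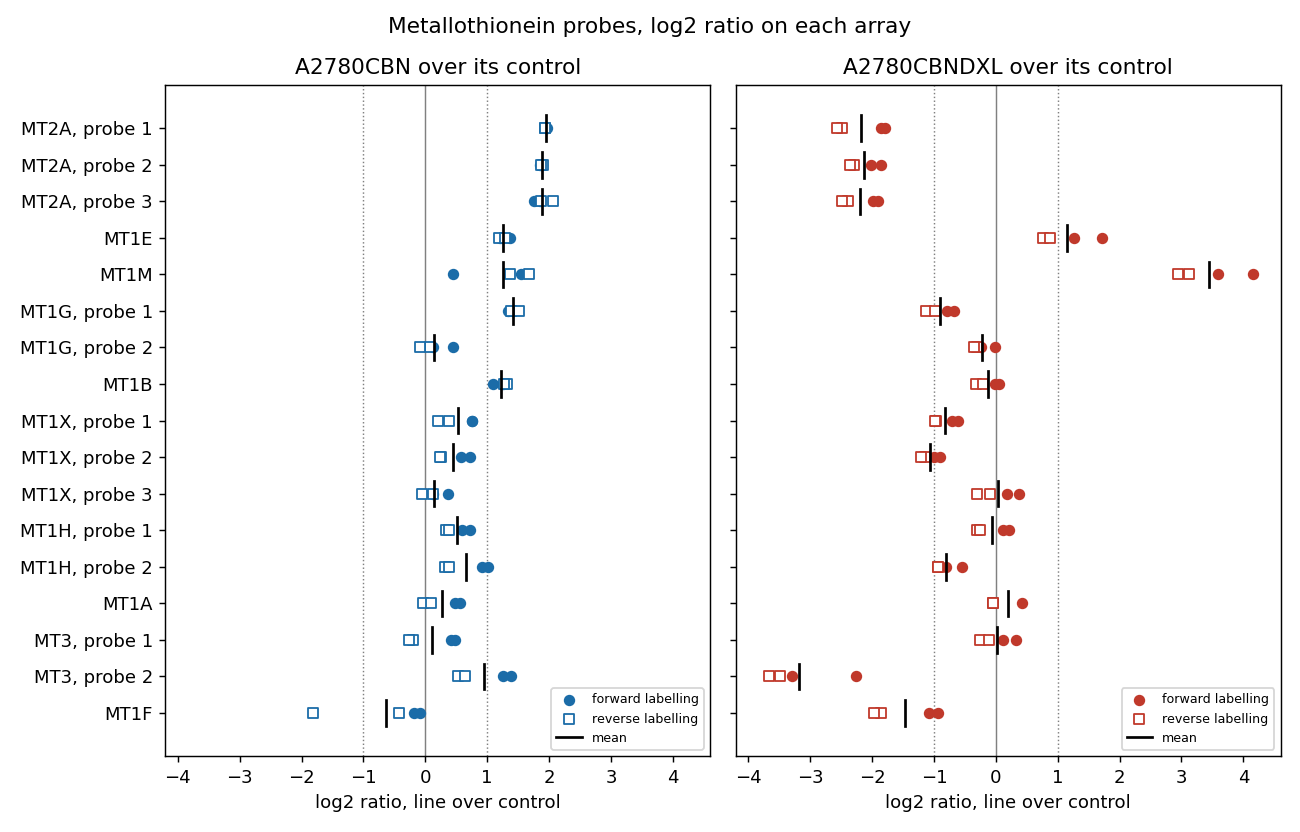
Log2 ratio of line over control for each of the 17 probes on each array, with A2780CBN on the left and A2780CBNDXL on the right. Filled circles are forward and open squares reverse labelled arrays, black bars are means, and dotted lines mark 2-fold. The 3 MT2A probes lie between 1.76 and 2.06 on all arrays of A2780CBN and between -2.57 and -1.79 on those of A2780CBNDXL.

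MT2A is the most widely expressed member in human tissues. Its processed signal on arrays 1 to 4 of A2780CBN was 4914.5, 4353, 5053 and 5277 in the line and 1256, 1131, 1306 and 1371 in the control. On the arrays of A2780CBNDXL the line gave 344, 425, 544 and 421.5 and the control 1246, 2393, 1879 and 2502. The line and control signals did not overlap in either experiment, with the line above the control in the first and below it in the second. Levels are those of bulk RNA, in which fewer cells with a transcript and less RNA per cell cannot be told apart. The log2 ratios were 1.97, 1.94, 1.95 and 1.94 in A2780CBN. In A2780CBNDXL they were -1.86, -2.49, -1.79 and -2.57, lower in size on both forward labelled arrays than on the reverse labelled ones. The other MT2A probes, at chr16:55200782-55200841 and chr16:55200838-55200897, overlap the first in position. The former shares a run of only 9 bases with it. The latter is identical to it at 54 of 55 bases and so largely repeats the same sequence. Over the arrays of A2780CBN these probes ran from 1.86 to 1.90 and from 1.76 to 2.06. On those of A2780CBNDXL they ran from -2.35 to -1.86 and from -2.49 to -1.91. MT2A was called in both lines under each alternative run for the counts of called members, although the filters on dim probes cannot affect it. Its ratio under them was 1.46 to 1.96 in A2780CBN and -2.20 to -1.68 in A2780CBNDXL. The study itself reported MT2A as higher in A2780CBN on its arrays, but QPCR against the parental line gave no significant difference. For A2780CBNDXL the study reported no significant MT2A difference, either on its arrays or by QPCR. The alternatives here use the same arrays and do not bear on that disagreement.

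After scaling between arrays by the Aquantile method, the channels of different arrays could be set side by side. The mean MT2A signal was then highest in A2780CBN, at 5137, followed by the control beside A2780CBNDXL at 1870, the control beside A2780CBN at 1327 and A2780CBNDXL at 414. On arrays matched for slide and dye the log2 difference of A2780CBNDXL minus A2780CBN was -3.66, -3.67, -3.30 and -3.91. Between the controls it was 0.16, 0.77, 0.44 and 0.61, with a mean of 0.49 ± 0.26 (SD of 4 pairs), so the controls differed by less than 2-fold and in the same direction on all 4 pairs. The lines thus differed from each other by more than their controls did.

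**Figure D2:**
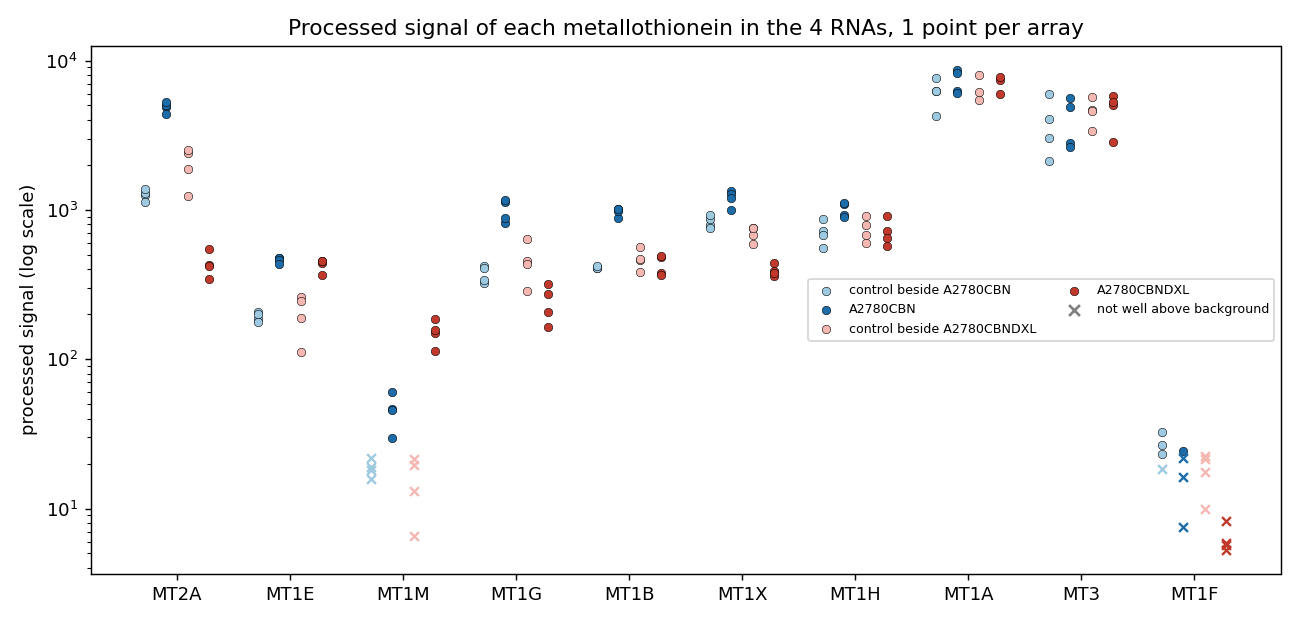
Processed signal on a log scale for the probe that stands for each member, with 1 point per array for the control beside A2780CBN, A2780CBN, the control beside A2780CBNDXL and A2780CBNDXL. Crosses are signals not well above background, which include all control points of MT1M. Heights can be compared within a gene but not between genes.

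MT1E is a metal-binding member of the MT1 group and the single member, besides MT1M, called higher in both lines. The MT1E signals were 478, 475, 461 and 434 in A2780CBN against 184.5, 208, 199.5 and 178 in its control. In A2780CBNDXL they were 364.5, 438, 454 and 451, against 112, 259, 189 and 246. No control value reached any value of its line. The log2 ratio was 1.26 ± 0.08 (SD of 4 arrays) in A2780CBN and 1.15 ± 0.43 in A2780CBNDXL, where the forward arrays gave 1.71 and 1.26 and the reverse arrays 0.76 and 0.87. Both values fell under the 2-fold limit with normexp and loess, to 0.67 and 0.59, and in neither line under the other alternatives that recompute the ratio. Directly compared, the lines differed by -0.17 ± 0.09 and the controls by -0.06 ± 0.34.

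MT1M, another metal-binding MT1 gene, was dim in every RNA. On arrays 1 to 4 the signal was 29.8, 46.5, 46.0 and 60.3 in A2780CBN and 114, 150.0, 157 and 186 in A2780CBNDXL. The controls gave 15.7 to 21.8 beside A2780CBN and 6.5 to 21.4 beside A2780CBNDXL, and were well above background on 0 of the 4 arrays in both cases. Against the control, expression was therefore at least 1.98-fold higher in A2780CBN. In A2780CBNDXL the bound was calculated as 7.55-fold higher. With the lowest control signals well above background on these arrays, 19.52 to 24.13, that bound is somewhat lower. The mean log2 ratios, 1.26 and 3.45, rest on control signals within the background. The bound in A2780CBN is just under the 2-fold limit, so the call there rests on the ratio and not on the bound. In A2780CBN the ratio was 0.98 without array 3 and 0.91 on slide 1 alone, so the call was lost, and normexp with loess took it to 0.17 and that of A2780CBNDXL to 0.48. The line signals themselves, all well above background, were higher in A2780CBNDXL than in A2780CBN on all 4 matched pairs, by a mean of 1.68 ± 0.22 on the log2 scale.

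For MT1G, which encodes a further metal-binding protein of the MT1 group, the probe across the stop codon printed above gave 817, 882, 1130 and 1164 in A2780CBN. The control on these arrays was at 325, 337, 422 and 410. In A2780CBNDXL the line was at 164, 207, 273.5 and 320 and its control at 285, 453, 434.5 and 636. On every array the line was thus above its control in A2780CBN and below it in A2780CBNDXL. The ratios were 1.41 ± 0.07 and -0.90 ± 0.20, the second under the 2-fold limit. The other MT1G probe, at chr16:55258789-55259436 and nearer the start of the transcript, shared at most 10 bases with any other member and gave 0.14 ± 0.22 and -0.23 ± 0.16. The probes of MT1G did not give the same result, and with their mean in place of the brighter one the A2780CBN value was 0.78 and no longer called.

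MT1B, also a metal-binding gene of the MT1 group, had signals of 881, 1010, 983 and 1014 in A2780CBN against 415, 405, 409 and 420 in the control. In A2780CBNDXL the line gave 378, 368, 487 and 493 and the control 382, 460.5, 469 and 566, which overlap. The log2 ratio was 1.23 ± 0.10 in A2780CBN and -0.12 ± 0.17 in A2780CBNDXL. With normexp and loess the first value was 0.86.

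MT1X is among the MT1 genes most widely expressed in cultured cells, and none of its 3 probes was called in A2780CBN. The brightest, whose near-identity to an MT1H probe is shown above, gave 0.75, 0.21, 0.75 and 0.39 in A2780CBN and -0.71, -0.97, -0.61 and -0.99 in A2780CBNDXL. The ratios were above 0 on all arrays of the first line and below 0 on all arrays of the second, with means of 0.52 ± 0.27 and -0.82 ± 0.19. The probe across the MT1X stop codon gave 0.45 ± 0.24 and -1.06 ± 0.14, and passed the 2-fold rule in A2780CBNDXL as a probe, though it does not stand for the gene. The remaining MT1X probe, at chr16:55273877-55273936, shared no run longer than 8 bases with another member and gave 0.14 ± 0.17 and 0.04 ± 0.30. It is the only member probe without a matching RefSeq accession, and the annotation lists no transcript for it. Whether it measures MT1X is therefore not known. As for MT1G, the probe with the least shared sequence changed least, but for MT1X this is the probe without a RefSeq match.

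The probes of MT1H also differed from each other, though both share long runs with other members. On the arrays, the one at chr16:55261957-55262342 lay between 0.34 and 0.72 in A2780CBN and between -0.31 and 0.21 in A2780CBNDXL, with means of 0.51 ± 0.18 and -0.06 ± 0.26. The one at chr16:55228291-55228350, for which the annotation also lists MT1L and MT1X transcripts, gave 0.66 ± 0.36 and -0.80 ± 0.19, close to the values of the MT1X probe it resembles. Its coordinates lie between those of the MT1M and MT1A probes, apart from the first MT1H probe. MT1A, whose probe resembles the first MT1H probe, had a ratio of 0.27 ± 0.29 in A2780CBN and of 0.19 ± 0.27 over the 3 usable arrays of A2780CBNDXL, since the spot on array 3 was an outlier. MT1F was close to background, with the line well above it on 1 and the control on 3 of the 4 arrays of A2780CBN, and neither on any array of A2780CBNDXL, so no fold is given.

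MT3, first described as a growth inhibitory factor of nerve cells, had a bright probe at chr16:55182434-55182492 that gave 0.10 ± 0.39 in A2780CBN and 0.02 ± 0.25 in A2780CBNDXL. In both lines its ratio was above 0 on the forward and below 0 on the reverse labelled arrays. The other MT3 probe, at chr16:55182294-55182353 on the plus strand, was dim and is printed because it was the 1 member probe at which the controls were called different.
MT3: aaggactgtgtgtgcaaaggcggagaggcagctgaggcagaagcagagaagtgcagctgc

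At this probe A2780CBN gave 46.1, 27.3, 37.2 and 43.9 and its control between 14.3 and 28.3, of which the highest, on array 4, was well above background. A2780CBNDXL gave 11.4, 12.4, 37.3 and 13.2, of which 37.3 was well above background, and its control 113, 158, 179 and 149. The log2 ratio was 0.95 ± 0.43 in A2780CBN and -3.18 ± 0.63 in A2780CBNDXL, and the size of both is uncertain because 1 channel was mostly within the background. Here the controls themselves differed, by 2.84 ± 0.55 between the arrays of A2780CBNDXL and those of A2780CBN, and the lines by -1.28 ± 0.86. No other probe of a member differed by 2-fold between the controls. The probes of MT3 thus disagreed, and no direction is given for the gene from the dim one.

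When the line channels were compared directly over arrays matched for slide and dye, 9 members were measured. MT1B, MT1G, MT1X and MT2A, or 4 of them, were called lower in A2780CBNDXL than in A2780CBN, beside 9.39% of the 18388 genes measured, and MT1M was the 1 member called higher, beside 6.44%. The mean differences were -1.26 ± 0.31 for MT1B, -2.15 ± 0.10 for MT1G and -1.70 ± 0.13 for MT1X, and -3.63 ± 0.25 for MT2A as its array values above give. The MT1G and MT1X probes with the least shared sequence differed by -0.64 ± 0.46 and -0.58 ± 0.47 and were not called. The call of MT1G thus does not hold for all its probes. For MT1X the probe not called is the one without a RefSeq match. The MT1X probe across the stop codon was called lower, at -1.95 ± 0.09. MT1H differed by -0.60 ± 0.37 at the probe that stands for it and by -1.89 ± 0.27, called lower, at the probe nearly identical to one of MT1X. MT1A differed by -0.01 ± 0.48 over 3 pairs and MT3 by 0.14 ± 0.60 at its bright probe. The same comparison of the control channels measured 8 members and called 0 of them higher, beside 3.16% of 18173 genes, and 0 lower, beside 1.32%. The control means of these 8 members lay between -0.36 for MT1X and 0.49 for MT2A. Without pair 3 of the arrays MT1F was measured as well and called lower in the control of A2780CBNDXL, which made the count 1.

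Across both experiments, 15 member probes were measured in both lines. Of these, 8 probes of 5 members had ratios above 0 on all arrays of A2780CBN and below 0 on all arrays of A2780CBNDXL, beside 7.04% of the 22512 probes measured in both lines, and 0 had the reverse pattern, beside 6.9%. MT3 is among the 5 members only through its dim probe, for which no direction is given. The 8 probes are not independent, since several overlap in position or share sequence.

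**Figure D3:**
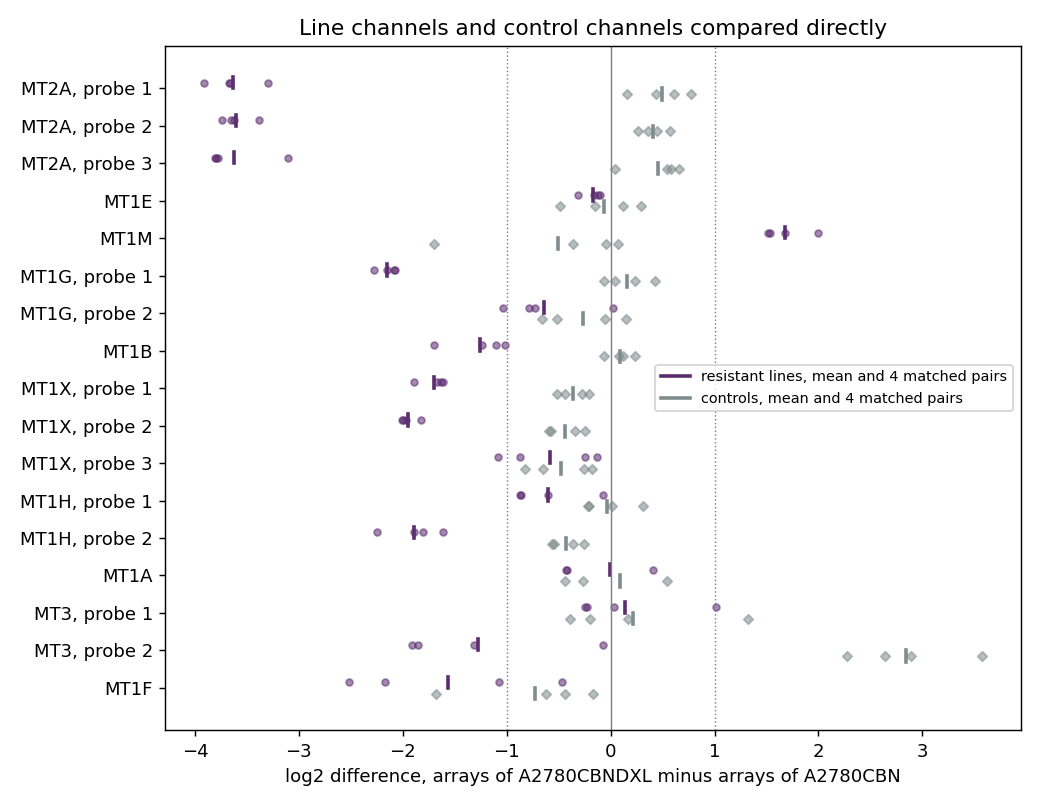
Log2 difference between the arrays of A2780CBNDXL and those of A2780CBN for each probe, in the channels of the lines (circles) and of the controls (diamonds). Points are the 4 matched pairs, bars their means, and dotted lines mark 2-fold. The MT2A lines lie between -3.91 and -3.10 while its controls lie between 0.04 and 0.77, and the dim MT3 probe has controls at 2.27 to 3.57.

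The member probes span 93.2 kb of chromosome 16, from 55182294 to 55275470 on NCBI36. Within 500 kb on either side the array held 24 other gene names, of which 13 were measured in each line. In A2780CBN 1 of the 13 was called higher, MT1L, and 0 were called lower, with a median of -0.15. MT1L is a metallothionein-like gene of the same cluster that was not among the members. It had a ratio of 1.52 ± 0.08 in A2780CBN and -0.33 ± 0.18 in A2780CBNDXL. Its probe was not compared in sequence with those of the members, so whether it measures MT1L alone is not known. In A2780CBNDXL 0 of the 13 were called higher and 1 was called lower, NLRC5 at -1.97 ± 0.75 with the line well above background on 3 of 4 arrays, a regulator of antigen presentation genes that lies 434 kb from the MT2A probe, and the median was -0.13. NLRC5 was at 0.99 ± 0.20 in A2780CBN. In position, the run of members called in A2780CBN was interrupted by MT1A, which was not called and lies between MT1M and MT1B, and by MT1F, which was not measured and lies between MT1B and MT1G.

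**Figure D4:**
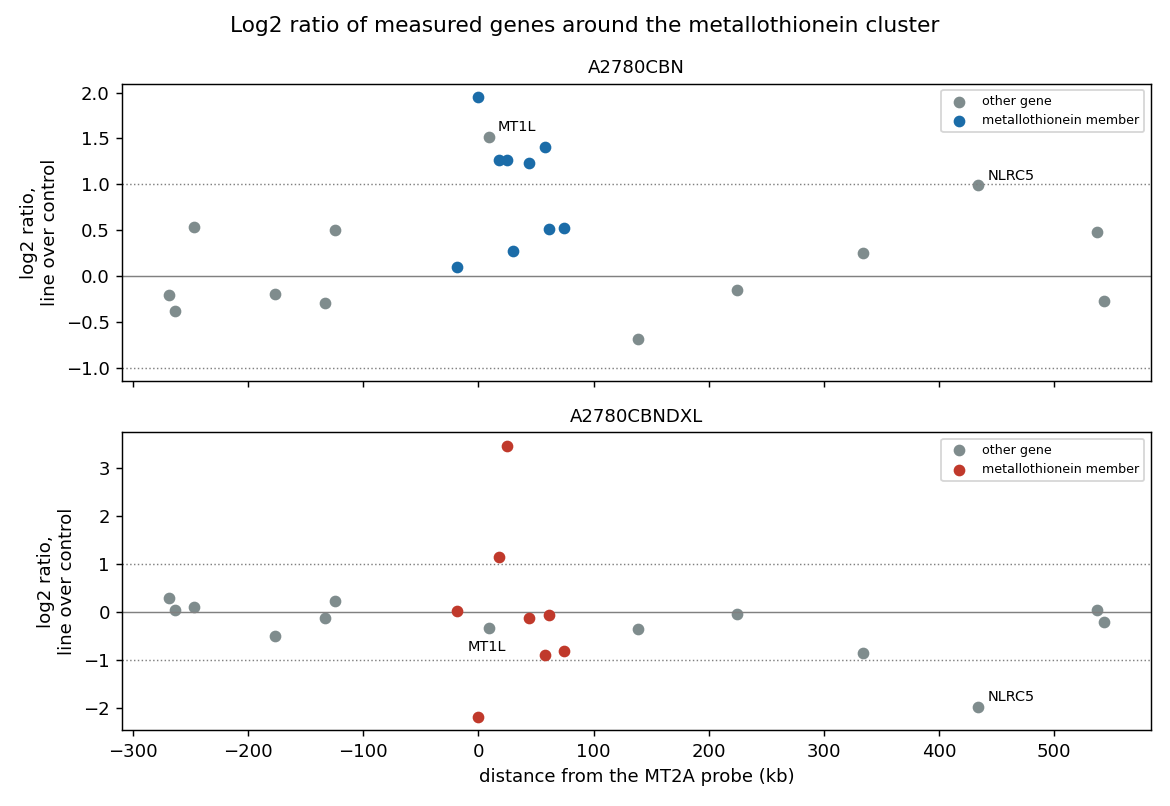
Log2 ratio of line over control against distance from the MT2A probe in kb, for measured members (coloured) and other measured genes (grey), in A2780CBN above and A2780CBNDXL below. Dotted lines mark 2-fold. Outside the metallothionein genes, NLRC5 is the 1 neighbour past 2-fold, in A2780CBNDXL.

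Promoters are shown because the family is known for its metal response elements. Whether members changed jointly was not tested. RefSeq promoter sequences on GRCh38.p14 were found for 4 of the 10 members, MT1B, MT1H, MT1X and MT2A, of which MT1H and MT1X were called in neither line. They are given as the 250 bases before the transcription start on the plus strand, at chr16:56651636-56651885, chr16:56669564-56669813, chr16:56682220-56682469 and chr16:56608334-56608583. Capitals mark the metal response element core, searched as TGCACNC and TGCGCNC on both strands.
MT1B: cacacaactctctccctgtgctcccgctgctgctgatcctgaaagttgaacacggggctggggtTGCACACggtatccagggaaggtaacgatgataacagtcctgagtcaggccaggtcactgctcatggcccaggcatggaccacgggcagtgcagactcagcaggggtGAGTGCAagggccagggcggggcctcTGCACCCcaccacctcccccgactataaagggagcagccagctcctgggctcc
MT1H: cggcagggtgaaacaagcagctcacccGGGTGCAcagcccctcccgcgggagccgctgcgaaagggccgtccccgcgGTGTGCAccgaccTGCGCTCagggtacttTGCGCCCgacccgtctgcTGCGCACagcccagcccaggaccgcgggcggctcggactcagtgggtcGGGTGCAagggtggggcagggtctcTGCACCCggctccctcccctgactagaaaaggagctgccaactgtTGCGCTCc
MT1X: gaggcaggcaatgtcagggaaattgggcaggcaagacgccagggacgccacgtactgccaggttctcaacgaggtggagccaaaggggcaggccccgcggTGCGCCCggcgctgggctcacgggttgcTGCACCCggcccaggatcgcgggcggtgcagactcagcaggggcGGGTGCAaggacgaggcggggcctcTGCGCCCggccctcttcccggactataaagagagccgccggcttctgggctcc
MT2A: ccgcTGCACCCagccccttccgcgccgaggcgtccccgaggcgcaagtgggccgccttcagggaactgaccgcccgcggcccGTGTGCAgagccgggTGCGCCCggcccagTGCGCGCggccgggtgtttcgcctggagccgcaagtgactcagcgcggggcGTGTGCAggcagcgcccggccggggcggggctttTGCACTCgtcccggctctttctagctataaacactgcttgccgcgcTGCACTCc

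The core was found 3 times before MT1B, 8 times before MT1H, 4 times before MT1X and 7 times before MT2A. Of 35116 RefSeq promoters of the same length, 24.8% held at least 1 core and 0.37% at least 4. In all 4 promoters 1 match on the plus strand began 53 or 54 bases before the start. The antioxidant response element core TGACNNNGC, on either strand, was present once each before MT1B, MT1X and MT2A and was absent in the window of MT1H, and 10.9% of all promoters held it. For the TATA box, TATAAA, the same members had 1 match each, beside 3763 of the 35116 promoters. The number of overlapping matches among these motifs was 0 in each promoter. These matches describe letters in a window, and binding was not tested.

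Over the 16 channel values of the 4 RNAs, on the log2 scale, the genes most like MT2A among 16121 genes were CA13, FAM46A, FKBP1B, ARHGAP23 and an unnamed transcript from chromosome 2. FAM46A is now named TENT5A. Their Pearson correlations with MT2A were 0.98 to 0.99 and are a description, since the 16 values come from 4 RNA samples. CA13 was at 2.50 ± 0.10 in A2780CBN and -2.88 ± 0.58 in A2780CBNDXL, where the line was well above background on 1 of 4 arrays, so the size of the second ratio is uncertain. FAM46A was at 2.72 ± 0.09 and -3.26 ± 0.23, the second with 3 of 4 arrays on which the line was well above background. FKBP1B was at 1.69 ± 0.24 and -1.84 ± 0.21, and ARHGAP23 at 1.72 ± 0.39 and -2.37 ± 0.35, with A2780CBNDXL well above background on 3 arrays. Within the family, MT1G had a correlation of 0.94 with MT2A, at rank 87 of all genes, MT1X 0.93, MT1B 0.80 and MT1H 0.56. MT1E at 0.08, MT3 at -0.01 and MT1M at -0.45 did not follow MT2A. The MT1M value is uncertain, since all its control signals were within the background.

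Of the transcription factors known to act on these genes, 7 of 8 were measured in A2780CBN. MTF1, the zinc sensor, was at -0.44 ± 0.51 in A2780CBN and -0.31 ± 0.29 in A2780CBNDXL, within the limit in both. STAT3, which acts in cytokine induction of metallothioneins, was the 1 regulator called higher in A2780CBN, at 1.61 ± 0.22, with a list median of -0.04. In A2780CBNDXL 0 of 6 were called in either direction, with a median of 0.22, STAT3 at 0.05 ± 0.40 and the largest ratio that of USF2, 0.87 ± 0.38. The glucocorticoid receptor gene NR3C1 was well above background on 0 arrays.

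Among the zinc exporters of the SLC30 family, which carry zinc out of the cytosol, 9 were measured in each line. SLC30A1, the exporter of the plasma membrane and itself a target of MTF1, was lower than the control in both lines, at -1.10 ± 0.16 in A2780CBN and -1.35 ± 0.35 in A2780CBNDXL, each against its own control. The controls themselves differed for this gene, by -1.25 between the arrays of A2780CBNDXL and those of A2780CBN, which is more than the A2780CBN ratio, so that ratio depends on the control in use. SLC30A3 was at 2.41 ± 0.25 in A2780CBN and -1.58 ± 0.27 in A2780CBNDXL, the same signs as MT2A. SLC30A8 had the opposite signs, at -2.06 ± 0.24, with the line well above background on 3 of 4 arrays, and 3.39 ± 0.18. For SLC30A10 the bound in A2780CBNDXL was calculated as 6.73-fold higher. As for MT1M, it is somewhat lower with the lowest control signal well above background on each array. Neither channel was well above background for SLC30A10 in A2780CBN. In all 1 exporter was called higher and 2 lower in A2780CBN, 2 were called higher and 2 lower in A2780CBNDXL, and the median was -0.06 in both.

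The zinc importers of the SLC39 family bring zinc into the cytosol, and 12 of 14 were measured in each line. SLC39A8 was the 1 importer called in A2780CBN, lower at -1.03 ± 0.62 with the line well above background on 3 of 4 arrays. The list median was -0.07 and the largest ratio that of SLC39A11, 0.96 ± 0.10. In A2780CBNDXL SLC39A14 and SLC39A10 were called lower, at -1.37 ± 0.06 and -1.06 ± 0.07, 0 were called higher, with SLC39A8 the largest at 0.77 ± 0.28, and the median was 0.23.

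**Figure D5:**
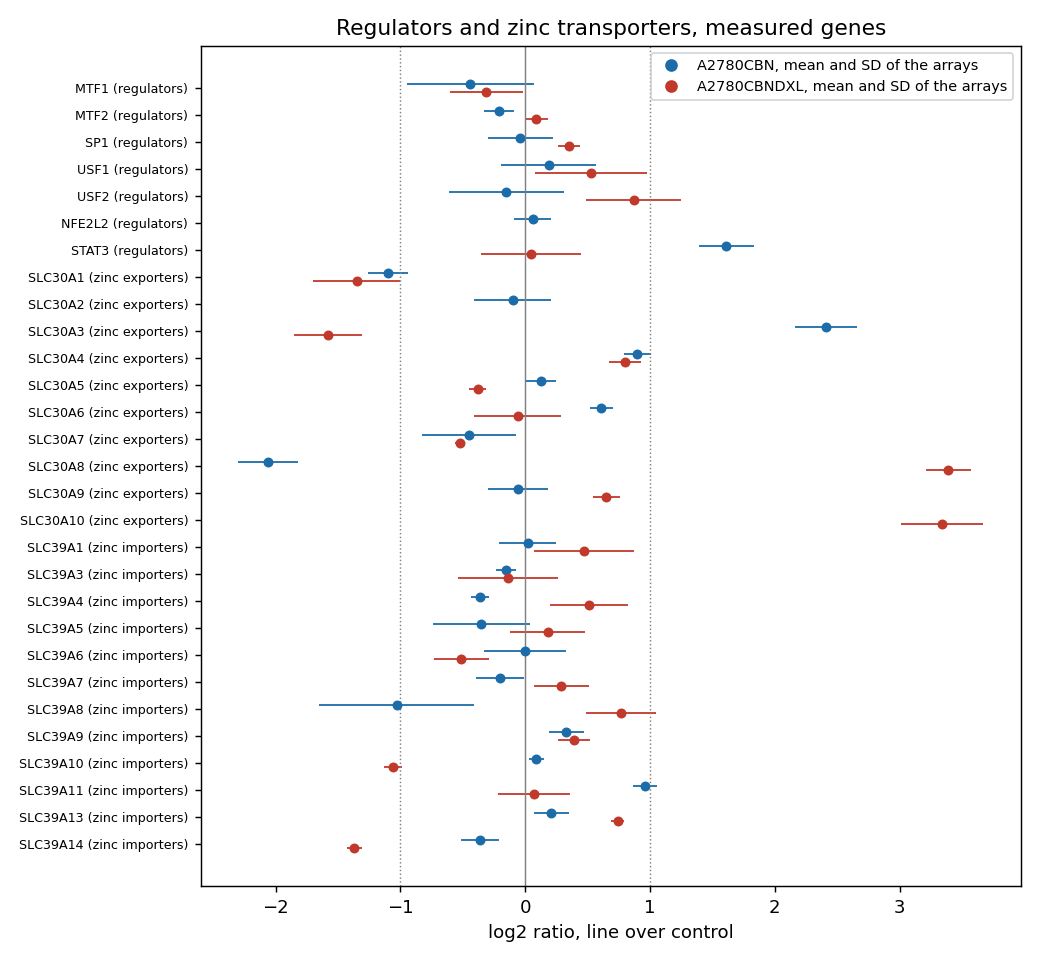
Log2 ratio of line over control for measured regulators, zinc exporters and zinc importers, with A2780CBN in blue and A2780CBNDXL in red. Points are means, bars the SD between arrays, and dotted lines mark 2-fold. SLC30A1 is below -1 in both lines, against controls that differed by -1.25, while SLC30A3 and SLC30A8 change in opposite directions in the lines.

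Other genes that respond to metals and oxidants include HMOX1, which encodes the heme-degrading enzyme induced by cadmium. In A2780CBN 0 of 10 such genes were called in either direction, with a median of 0.23 and ratios from -0.29 ± 0.20 for GCLM to 0.88 ± 0.49 for HMOX1. In A2780CBNDXL 3 of 9 were called lower and 0 higher, with a median of -0.35 and DNAJB1 the largest at 0.26 ± 0.09. HMOX1 was at -3.13 ± 0.20 and GCLM, a subunit of the enzyme that starts glutathione synthesis, at -1.83 ± 0.38. SLC7A11, the cystine carrier, was lower than the control by a bound calculated as 10.8-fold. With the lowest line signals well above background on these arrays, 21.37 to 27.38, that bound is somewhat lower. Of genes that respond to glucocorticoids, 0 of 6 were called in A2780CBN, with a median of 0.26 and ratios from -0.77 ± 0.49 for SGK1, where the line was well above background on 3 of 4 arrays, to 0.76 ± 0.06 for TSC22D3. In A2780CBNDXL 2 of 7 were called lower, TSC22D3 at -1.78 ± 0.33 and DUSP1 at -1.03 ± 0.45, 0 were called higher, with KLF9 the largest at 0.92 ± 0.14, and the median was -0.43. The remaining metallothionein-related names on the array, apart from MT1L, were MTL5, now TESMIN, at 1.70 ± 0.65 in A2780CBN, and MT4 and MT1JP, which were not above background. Of the 2 names measured in A2780CBN both were called higher, with a median of 1.61, and MT1L was the 1 measured in A2780CBNDXL. Whether any of these genes had a part in the metallothionein values was not tested.

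The labelled tissue was checked against marker genes. Of 7 epithelial and ovarian carcinoma markers on the array, KRT8, KRT18, EPCAM and PAX8 were measured, and CDH1, WT1 and MUC16 were not well above background on any array. Their summed signal was 3871 in A2780CBN and 2233 in its control, and 3830 and 2552 in the A2780CBNDXL experiment, the KRT18 probe having the largest part in each. Such sums add probes whose signals are not levels that can be compared between genes. KRT18 and EPCAM, 2 of the 4, were called higher in A2780CBN, at 1.05 ± 0.16 and 2.07 ± 0.30, with a median of 0.63, and EPCAM in A2780CBNDXL, at 1.67 ± 0.24 with its control well above background on 3 of 4 arrays, with a median of 0.42. KRT8 was the lowest of the 4 measured, at -0.37 ± 0.17 and 0.18 ± 0.07. Both mesenchymal markers were called higher in A2780CBN, VIM at 1.08 ± 0.67 and FN1 at least 8.75-fold, with a median of 2.67, or of 2.10 with FN1 at its bound, and VIM alone was measured in A2780CBNDXL, at 0.30 ± 0.04. Their summed signal, nearly all from VIM, was 256823 against 127339 and 246968 against 200051. Among 6 markers of leukocytes, endothelium and fibroblasts, PTPRC, PECAM1 and CDH5 were not well above background on any array, CD3E was at 0.10 ± 0.19 and -0.02 ± 0.18, and the collagen genes carried the rest. COL3A1 was at 1.44 ± 0.31 and 1.16 ± 0.29 and COL1A1 at 0.99 ± 0.08 and 2.04 ± 0.20, with list medians of 0.99 and 1.16. The summed signal of this list was 40614 in A2780CBN against 15263 in its control, and 43760 in A2780CBNDXL against 19448, nearly all from the COL3A1 probe. The part of these marker changes in the metallothionein values was not tested.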

How the data were processed

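The authors labelled pooled RNA, scanned the arrays and deposited Agilent Feature Extraction output, made with version 10.7.1.1 (slide 1) or, on slide 2, with 10.7.3.1. The deposited processed intensities are background-subtracted, detrended and dye-normalized. Dye entries of the reverse labelled arrays conflict with their name, so their ratios were inverted, following the name and the study's methods. Over 39217 probes, forward then correlated with reverse log2 ratios at 0.58 to 0.74 within a line.

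Outlier spots were left out, spots of a probe were averaged, and the mean log2 ratio weighted both labelling directions equally. Bounds written as "at least" apply where a channel was well above background on no array, with the mean of the bright channel set against the higher of the probe's own signal and the lowest signal well above background. Of the 17 member probes 16 matched a RefSeq accession with the same symbol. No test across samples was run, for want of a second sample of each line.

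Members and lists were chosen with earlier results of these data known. Named genes are all members, neighbours within 500 kb that passed the 2-fold rule, the 4 highest and the 4 lowest genes of each list by ratio in a line, and the 5 genes most like MT2A. Of the list genes so eligible, the text gives those called and the extremes of each list, besides STAT3 in both lines and genes not above background. The lists were other metallothionein names, regulators, zinc exporters, zinc importers, metal-responsive genes, glucocorticoid-responsive genes and 3 groups of cell markers. NLRC5 in A2780CBN was given after its values were seen.

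Alternatives were normexp (offset 50) with loess, each array left out, each slide alone, median centring of background-subtracted signals, the mean over a gene's probes, no filter, both channels above background, the other line's control, other scaling of channels, the difference of the ratios, fold limits of 1.5 and 3, and limma with a dye term and slide as a block at an adjusted p limit of 0.05. With 1 sample per line, the limma p covers labelling and hybridization error only. The steps were tested on simulated data. Tools were Python 3.11.15 with pandas 2.3.3, numpy 2.4.6 and matplotlib 3.10.9, and R 4.3.3 with limma 3.58.1.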

Additional observations from a re-analysis of the deposited data

Results flagged for a closer look

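At 8 probes of 5 members every array of A2780CBN had a ratio above 0 and every array of A2780CBNDXL a ratio below 0, out of 15 member probes measured in both lines. Over the array 7.04% of 22512 probes measured in both lines had this pattern. The differences in log2 ratio, A2780CBNDXL minus A2780CBN, were -4.13 for the MT2A probe at 55200833, -4.01 for that at 55200782 and -4.08 for that at 55200838. For MT1G the probe at 55258247 gave -2.31. MT1X gave -1.34 at 55275399 and -1.51 at 55275411, and the MT1H probe at 55228291, nearly identical to the first of these, gave -1.46. The dim MT3 probe at 55182294 gave -4.13, but the size of this value is uncertain, since the control of A2780CBN and the line A2780CBNDXL were each well above background on 1 of 4 arrays. Each line is 1 pooled sample, so the difference between the lines was not tested for any of these probes.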

How the results depend on the processing

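The count of members called was 5 in A2780CBN and 3 in A2780CBNDXL. With normexp and loess it was 1 in each, MT2A both times. A fold limit of 3 gave 1 in A2780CBN, and limits of 1.5 and 3 gave 5 and 2 in A2780CBNDXL. There the count was 4 with the mean over probes, which added MT3, without the filter, which added MT1F, and with the other line's control, which added MT1X. With both channels above background MT1M lost its call in both lines. With each array left out in turn the counts were 4 to 5 and 3 to 3. The share of all genes called was counted for the main rule only. The changes in count under the alternatives are therefore not a result about the members. The median log2 ratio in A2780CBN, 1.23, was 0.44 with normexp and loess, 0.69 on slide 1 alone, 0.78 with the mean over a gene's probes, and 0.88 both without the filter and with both channels above background, and 0.75 to 1.22 with arrays left out. In A2780CBNDXL the median of -0.09 was -0.50 with the mean over probes and -0.11 to -0.04 with arrays left out. Of the comparisons between controls, which called 0 members, the mean over probes called 1, MT3, and leaving out pairs gave 0 to 1. The count between the lines, 5, was 4 to 6 under the alternatives run for it, which did not include normexp with loess, single slides, the filters or limma. Among values of single members 13 of 118 in A2780CBN and 13 of 114 in A2780CBNDXL moved by more than the SD between arrays, and 0 called values changed sign. These counts do not measure stability, since filters, and the mean over probes for genes with 1 probe, cannot move a value. The normexp offset of 50 makes ratios of dim probes smaller in size by construction. How much of the normexp shifts it accounts for, and the causes of the other shifts, were not tested. The median signal was 2.23 to 3.28 times background, which limits MT1F, MT1M and the dim MT3 probe.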
